A study of Mus musculus with 9 samples.

Results

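BMP Smad signalling and the Id genes were followed in sorted mouse bone marrow erythroblasts, the nucleated precursors of red cells, through 10 genes: the targets Id1, Id2 and Id3, the signal carriers Smad1, Smad4 and Smad5, the inhibitors Smad6 and Smad7, and the receptors Bmpr1a and Bmpr2. They were chosen by name, with earlier results of these data known. Every probe whose RefSeq accession maps to a symbol was taken, which gave 13 probes of the 55681 on the array. Of the 10 genes, 8 were bright enough to enter the test, among 14506 genes tested in all. Smad7 and Bmpr1a were not. The series asked how iron deficiency alters these cells: each comparison with normal diet gives the difference after that time on the diet, and 7 against 3 weeks gives the difference between the times. Its 3 groups were mice on low iron diet for 7 weeks, mice on low iron diet for 3 weeks, both counted from weaning, and mice on normal diet, with 3 arrays in each group. All mice were wild type, of strain C57BL/6J and labelled female, and all cells were labelled as subset II erythroblasts from a sort of bone marrow. The labels call the samples of a group biological replicates. They give neither the age of the normal diet mice nor the number of animals behind a sample, nor do they describe the gate of subset II.

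BMP ligands bind paired receptors on the cell surface, and the activated receptor phosphorylates Smad1, Smad5 or Smad9. These join Smad4, enter the nucleus and switch on target genes, among which the Id genes and the inhibitors Smad6 and Smad7 are the best known. Id proteins bind E proteins such as those of Tcf3, Tcf4 and Tcf12 and keep them from DNA, while Smad6 and Smad7 feed back on the receptors. In hepatocytes the same pathway drives hepcidin, the hormone that limits iron uptake, and in erythroid precursors BMP signalling is known for its part in stress erythropoiesis.

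The arrays differed as whole groups. Because every group had a separate slide and scan, the effects of slide and diet cannot be told apart. The share of spots well above background was 45.2% to 53.6% at 7 weeks, 56.8% to 70.8% at 3 weeks and 65.5% to 66.3% on normal diet. The 75th percentile of signal, to which every level below is scaled, was 791.7 to 1087 at 7 weeks, 1677 to 1837 at 3 weeks and 1499 to 1616 on normal diet. Without that scaling the median change of all genes at 7 weeks against normal diet was -1.07 on the log2 scale, against -0.26 with it. Spike-in control probes had a mean log2 level, relative to the 75th percentile, of 4.96 at 7 weeks, 1.36 at 3 weeks and 1.11 on normal diet. Y-linked transcripts went against the label of 2 normal diet arrays: Eif2s3y stood at log2 5.12 and 4.82 in replicates 1 and 2, and at -3.77 in replicate 3, well above background on all 3, while no low iron array had it well above background. Ddx3y was well above background on replicates 1 and 2 alone. The 2 probes of Xist, also sex-linked, stood at -6.73 and -5.59 on normal diet replicate 1 and -4.82 and -5.24 on replicate 2. On replicate 3 they stood at -0.41 and -0.73. Both were well above background on replicate 3 and on every low iron array, while replicate 2 had 1 of them so and replicate 1 had neither. Against replicates 1 and 2, effects of diet and of sex cannot be told apart. All 13 erythroblast markers on the array were well above background on all 9 arrays. Of the 8 endothelial markers, 3, 3 and 4 were well above background on all arrays at 7 weeks, 3 weeks and normal diet. Cdh5, Emcn and Robo4 were so on none of the 9 arrays. The effect of each of these differences on the results was not tested, beyond the values given without the arrays concerned.

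Promoter windows were read from RefSeq on build GRCm38.p6, from 250 bases before to 50 after a gene's start; 7 of the 10 genes had an entry, among 32851 windows of 27025 genes. Windows of 3 genes called in at least 1 comparison are shown, since the pathway acts on such elements and Id2 and Smad6 are among its targets. Capitals mark matches, on either strand, to GGCGCC and GTCTAGAC, both bound by Smad proteins, to the E-box CANNTG of helix-loop-helix factors, to TTCNNNGAA of Stat factors, and to AGATAA and TGATAA of GATA factors. No marked match in these windows overlaps another.
Id2, chr12:25096043-25096342, minus strand: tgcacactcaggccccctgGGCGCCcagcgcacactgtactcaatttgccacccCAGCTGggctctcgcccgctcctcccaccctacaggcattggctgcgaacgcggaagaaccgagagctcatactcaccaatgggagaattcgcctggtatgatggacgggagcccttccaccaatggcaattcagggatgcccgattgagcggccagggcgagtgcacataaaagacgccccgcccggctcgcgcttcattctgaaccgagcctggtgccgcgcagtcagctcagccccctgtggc
Smad5, the first of 3 windows, chr13:56702760-56703059, plus strand: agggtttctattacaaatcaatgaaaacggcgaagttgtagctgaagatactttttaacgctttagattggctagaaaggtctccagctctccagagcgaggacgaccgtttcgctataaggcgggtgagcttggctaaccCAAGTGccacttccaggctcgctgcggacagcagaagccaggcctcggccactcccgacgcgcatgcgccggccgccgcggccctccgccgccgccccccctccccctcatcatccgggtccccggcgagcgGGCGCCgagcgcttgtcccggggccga
Smad6, chr9:64022010-64022309, minus strand: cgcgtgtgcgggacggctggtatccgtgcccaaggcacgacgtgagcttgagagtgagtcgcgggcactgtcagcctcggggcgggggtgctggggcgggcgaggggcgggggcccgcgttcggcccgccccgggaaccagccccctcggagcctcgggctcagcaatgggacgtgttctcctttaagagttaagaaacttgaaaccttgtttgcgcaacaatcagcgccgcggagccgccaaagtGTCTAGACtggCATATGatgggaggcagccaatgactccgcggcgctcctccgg

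The Id2 window held 1 GGCGCC and 1 CANNTG, the Smad5 window printed here the same, and the Smad6 window 1 GTCTAGAC and 1 CANNTG. Of all windows, GGCGCC was found in 11.9%, GTCTAGAC in 0.213%, CANNTG in 72.3%, TTCNNNGAA in 8.30%, AGATAA in 11.2% and TGATAA in 9.05%. The windows of Bmpr1a and Bmpr2 each held 1 GGCGCC, and those of Id3 and Smad1 held none of the 6 motifs. Of the further Smad5 windows, 1 overlaps the printed window and holds the same GGCGCC and CANNTG sites. The other held 1 AGATAA and none of the other 5 motifs. GC content was 63.3% for Id2, 63.0%, 67.0% and 68.0% for the 3 Smad5 windows and 66.3% for Smad6, against a median of 52.7% over all windows. These matches describe letters in a window and say nothing of binding. Id2 spans chromosome 12 from 25093799 to 25096092, Smad5 chromosome 13 from 56703010 to 56742378 and Smad6 chromosome 9 from 63953076 to 64022085. Smad4 and Smad7 lie on chromosome 18.

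**Figure D1:**
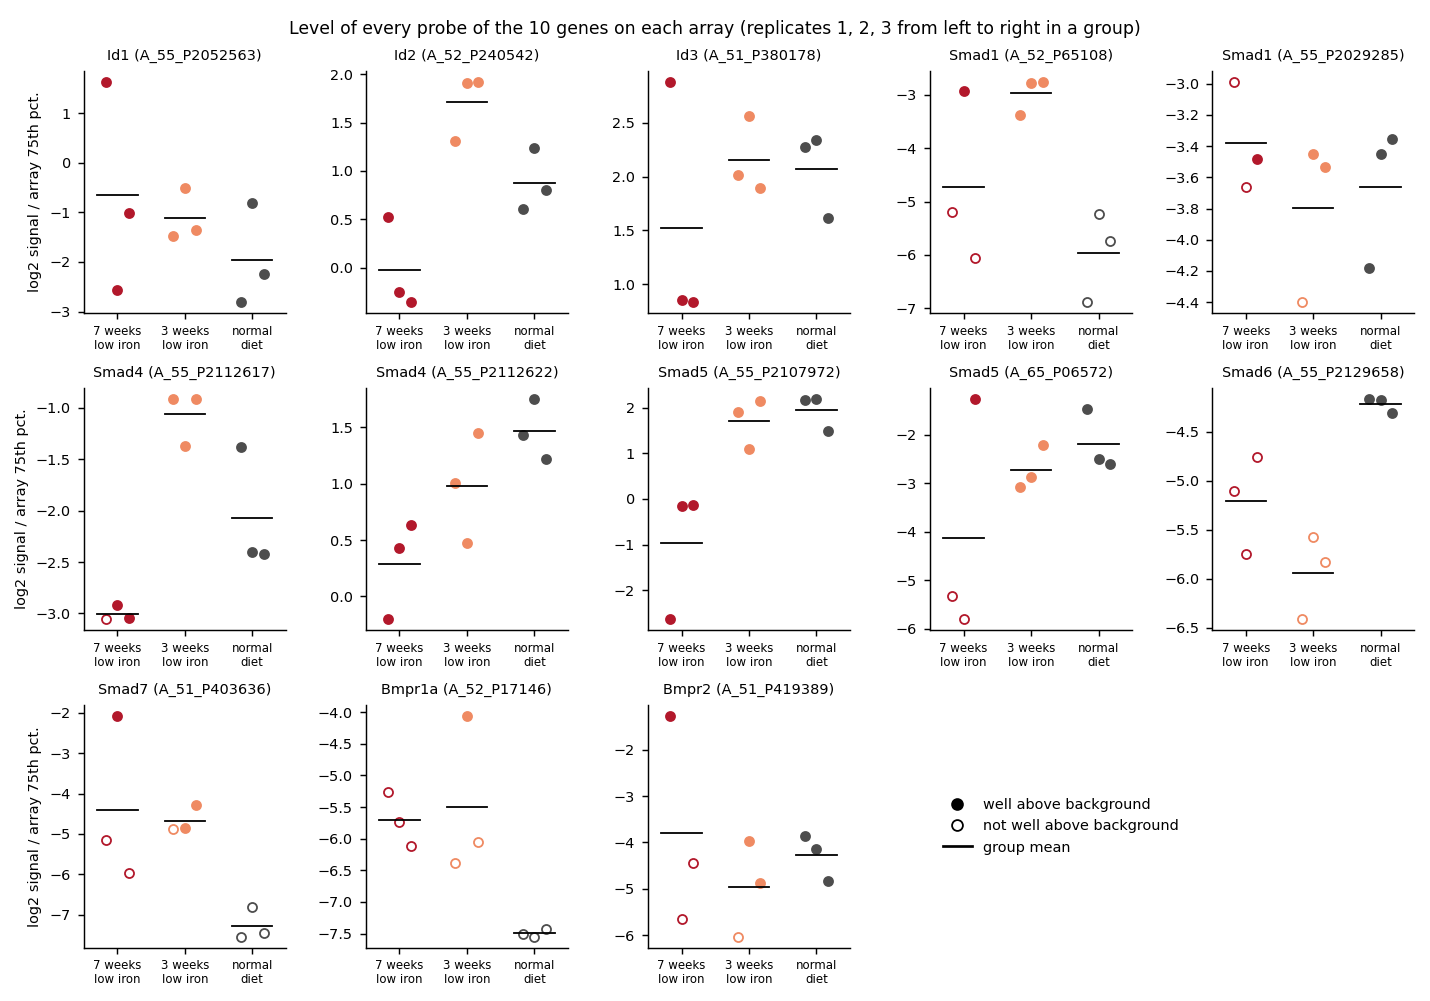
Level of each of the 13 probes on each array, as log2 signal relative to the array's 75th percentile, in 7 week, 3 week and normal diet groups (replicates 1, 2, 3 from left to right; bar, group mean; open circle, not well above background). The 3 Smad6 points of normal diet lie above all 6 low iron points, and 7 week replicate 1 is the highest array for Id1, Id3 and Bmpr2 and the lowest for the brighter Smad5 probe.

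Among the Id genes, Id2 passed the test in 1 comparison, and Id1 and Id3 in none with all arrays. Id2 encodes an inhibitor of helix-loop-helix factors. Its log2 level was 0.52, -0.25 and -0.35 at 7 weeks, 1.31, 1.91 and 1.92 at 3 weeks, and 0.61, 1.23 and 0.80 on normal diet. The 3 groups did not overlap, with the 3 week arrays highest and the 7 week arrays lowest. Id2 fell by 1.74 ± 0.34 at 7 weeks against 3 weeks (SE of the log2 fold change; 95% interval -2.50 to -0.98), which is 3.34-fold lower (limma adjusted p = 0.00462). This call was made in all 24 alternatives, some of which could not move the fold change. Against normal diet, neither difference passed the threshold: the log2 fold change was -0.91 ± 0.34 at 7 weeks (limma adjusted p = 0.0708) and 0.83 ± 0.34 at 3 weeks (limma adjusted p = 0.137). Without 7 week replicate 1, the 7 week value against normal diet was -1.18 (limma adjusted p = 0.0191). In a sorted bulk sample, fewer cells of a type and less RNA per cell cannot be told apart. Macrophage and monocyte markers moved in the same order as Id2: their summed level, in multiples of the array's 75th percentile, was 23.5 to 30.2 at 7 weeks, 72.5 to 100.1 at 3 weeks and 40.7 to 60.7 on normal diet. Of the 10 markers on the array, all well above background on every array, 7 fell and 0 rose at 7 weeks against 3 weeks. Of all genes, 19.6% were lower there. Against normal diet, 4 of the 10 were lower and 0 higher at 7 weeks, where 18.8% of all genes were lower. At 3 weeks 4 were higher and 0 lower, where 3.52% of all genes were higher. Their part in the Id2 difference was not tested.

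Id1, a classical immediate target of BMP receptors, spread too widely within groups for any difference to be seen. Its level was 1.63, -2.55 and -1.01 at 7 weeks, -1.48, -0.52 and -1.36 at 3 weeks, and -2.81, -0.82 and -2.25 on normal diet. The 7 week arrays alone spanned a wider range than all the others, with replicate 1 above every array and replicate 2 below all but 1. The log2 fold change against normal diet was 1.31 ± 0.95 at 7 weeks (95% interval -0.82 to 3.45; limma adjusted p = 0.313) and 0.84 ± 0.95 at 3 weeks (95% interval -1.30 to 2.98; limma adjusted p = 0.589). Between 7 and 3 weeks it was 0.47 (limma adjusted p = 0.722), and it turned to -0.67 without 7 week replicate 1. The intervals leave room for large changes either way.

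Id3, a further Id inhibitor, had levels of 2.88, 0.85 and 0.83 at 7 weeks, 2.01, 2.56 and 1.89 at 3 weeks, and 2.27, 2.34 and 1.61 on normal diet. At 7 weeks, replicates 2 and 3 lay below every other array while replicate 1 lay above every other array. With all arrays, the 7 week log2 fold change was -0.55 ± 0.54 against normal diet (limma adjusted p = 0.460) and -0.63 ± 0.54 against 3 weeks (limma adjusted p = 0.383). Without 7 week replicate 1, both passed the threshold, at -1.23 (limma adjusted p = 0.0207) and -1.31 (limma adjusted p = 0.0117). At 3 weeks against normal diet the log2 fold change was 0.08 (95% interval -1.14 to 1.30; limma adjusted p = 0.938).

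Smad5, a receptor-activated Smad of the BMP branch, showed the largest fitted change among the 8 tested genes. Its brighter probe had levels of -2.64, -0.17 and -0.13 at 7 weeks, 1.91, 1.10 and 2.14 at 3 weeks, and 2.18, 2.19 and 1.48 on normal diet. Every 7 week array lay below every other array, while the 3 week and normal diet arrays overlapped. Smad5 fell by 2.93 ± 0.65 at 7 weeks against normal diet (95% interval -4.38 to -1.47), 7.60-fold lower (limma adjusted p = 0.0118). It fell by 2.69 ± 0.65 against 3 weeks (95% interval -4.15 to -1.24), 6.47-fold lower (limma adjusted p = 0.0114). Replicate 1 carried part of the size: without it the values were -2.10 (limma adjusted p = 0.00567) and -1.86 (limma adjusted p = 0.00502). Without normal diet replicate 1 the call against normal diet was just lost (limma adjusted p = 0.0502). At 3 weeks against normal diet the log2 fold change was -0.23 ± 0.65 (limma adjusted p = 0.843). The dimmer Smad5 probe, A_65_P06572, had levels of -5.34, -5.81 and -1.26 at 7 weeks, where only the highest was well above background, -3.08, -2.87 and -2.22 at 3 weeks, and -1.47, -2.51 and -2.60 on normal diet. Its 7 week difference from normal diet had the same sign, -1.94 ± 1.03, and did not pass the threshold (limma adjusted p over all probes = 0.176).

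Smad4, the partner shared by the BMP and TGF-beta branches, fell at 7 weeks against normal diet by a smaller amount. Its brighter probe had levels of -0.20, 0.43 and 0.63 at 7 weeks, 1.00, 0.48 and 1.45 at 3 weeks, and 1.43, 1.75 and 1.22 on normal diet. The 7 week arrays lay below all normal diet arrays, and the 3 week arrays overlapped both groups. The 7 week difference from normal diet was -1.18 ± 0.35 (95% interval -1.96 to -0.40), 2.27-fold lower (limma adjusted p = 0.0329). It passed the threshold in 15 of 24 alternatives, and was lost without any 1 of the normal diet arrays, 3 week replicate 1, or 7 week replicates 1 or 2, at limma adjusted p of up to 0.0974. At 3 weeks against normal diet it was -0.49 (limma adjusted p = 0.377), and at 7 against 3 weeks -0.69 (limma adjusted p = 0.147). The dimmer Smad4 probe, A_55_P2112617, had levels of -3.06, -2.92 and -3.04 at 7 weeks, -0.91, -1.37 and -0.91 at 3 weeks, and -1.39, -2.41 and -2.42 on normal diet. Its order differed from that of the brighter probe, since its 3 week arrays stood highest. It differed between 7 and 3 weeks by -1.94 ± 0.33 (limma adjusted p over all probes = 0.00214), and from normal diet by -0.93 at 7 weeks (limma adjusted p over all probes = 0.058) and 1.01 at 3 weeks (limma adjusted p over all probes = 0.0735).

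Smad1, the other receptor-activated Smad of the BMP branch, was dim and its 2 probes did not agree. The probe that stood for the gene, A_55_P2029285, had levels of -2.99, -3.66 and -3.48 at 7 weeks, -4.40, -3.45 and -3.53 at 3 weeks, and -4.18, -3.45 and -3.35 on normal diet, well above background on 1, 2 and 3 arrays in that order. The groups overlapped throughout. Its log2 fold change was 0.28 ± 0.37 at 7 weeks (limma adjusted p = 0.578) and -0.13 ± 0.37 at 3 weeks (limma adjusted p = 0.844) against normal diet. The other probe, A_52_P65108, had levels of -5.20, -2.94 and -6.05 at 7 weeks, -3.38, -2.78 and -2.76 at 3 weeks, and -6.88, -5.24 and -5.74 on normal diet. At 3 weeks all 3 arrays had it well above background, at 7 weeks replicate 2 did, and on normal diet none. On this probe Smad1 was at least 5.70-fold higher at 3 weeks than on normal diet (limma adjusted p over all probes = 0.0329), but the probe passed the filter through the 3 week group alone, so only a difference in that direction could have been called. A fold written as "at least" sets the bright group's mean against the higher of the dim probe's own signal and the lowest signal well above background on each array.

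The inhibitory Smads were near the limit of detection. Smad6, which blocks BMP receptors and Smad1, had levels of -5.11, -5.75 and -4.76 at 7 weeks, -6.41, -5.57 and -5.83 at 3 weeks, and -4.16, -4.18 and -4.31 on normal diet. It was well above background on the 3 normal diet arrays and on none of the 6 low iron arrays, which all lay below them. Smad6 passed the brightness filter through normal diet alone, so only a lower level on low iron diet could have been called, and the p values beside it lend that direction no support. At 3 weeks against normal diet the fitted log2 fold change was -1.72 ± 0.34 (limma adjusted p = 0.0182), and the normal diet level was at least 2.07-fold higher. At 7 weeks the fitted value was -0.99 ± 0.34 (limma adjusted p = 0.0529), and no fold can be given, since the lowest signal well above background on those arrays averaged -3.55, above the normal diet mean of -4.22. The 3 week call was made in 14 of 23 alternatives. It was lost under quantile scaling, under both normexp background corrections, and without any 1 of the normal diet arrays or 3 week replicates 1 or 2.

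Smad7, which inhibits both the BMP and TGF-beta branches, was mostly not well above background. Its levels were -5.15, -2.08 and -5.96 at 7 weeks, -4.88, -4.85 and -4.29 at 3 weeks, and -7.54, -6.81 and -7.46 on normal diet. Every low iron array had more signal than every normal diet array, but only replicate 2 at 7 weeks and replicates 2 and 3 at 3 weeks were well above background, and none on normal diet. That left Smad7 out of the test. The lowest level well above background was itself -3.03, -3.72 and -3.89 at 7 weeks, -4.40, -5.73 and -6.56 at 3 weeks, and -5.73, -6.12 and -5.48 on normal diet, so no fold is given. A long non-coding gene, Gm41776, overlaps the span of Smad7.

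Of the receptors, Bmpr2, the type II receptor for BMP ligands, did not differ beyond its spread. Its levels were -1.27, -5.65 and -4.45 at 7 weeks, -6.03, -3.96 and -4.88 at 3 weeks, and -3.85, -4.14 and -4.84 on normal diet, with 1, 2 and 3 arrays well above background. The groups overlapped, and 7 week replicate 1 stood far above the other arrays. The log2 fold change was 0.49 ± 0.99 at 7 weeks (95% interval -1.75 to 2.73; limma adjusted p = 0.732) and -0.68 ± 0.99 at 3 weeks (limma adjusted p = 0.685) against normal diet. Without 7 week replicate 1 the 7 week value was -0.77 (limma adjusted p = 0.352). Bmpr1a, a type I receptor, had levels of -5.26, -5.74 and -6.12 at 7 weeks, -6.39, -4.06 and -6.06 at 3 weeks, and -7.50, -7.55 and -7.43 on normal diet. Only 3 week replicate 2 was well above background, so Bmpr1a was not tested.

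**Figure D2:**
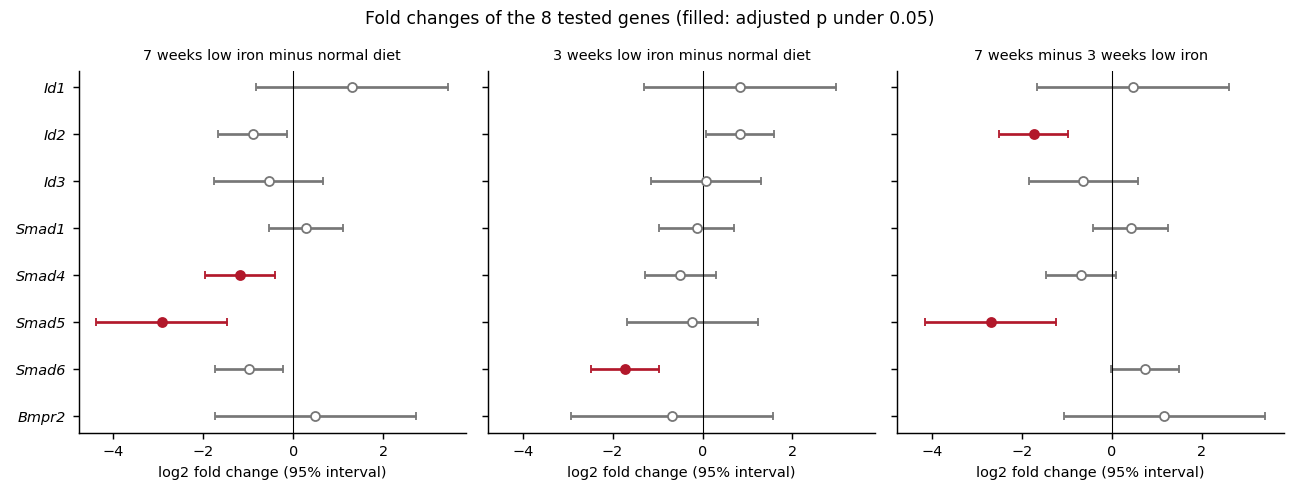
Log2 fold change of the 8 tested genes in 3 comparisons, with 95% intervals from limma (filled, adjusted p under 0.05). Smad4 and Smad5 at 7 weeks were lower than on normal diet, and Id2 and Smad5 were lower at 7 than at 3 weeks. Smad6 at 3 weeks is filled too, but it passed the brightness filter through normal diet alone, so only a lower value could be called.

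Over the 8 tested genes, 2 fell and 0 rose at 7 weeks against normal diet, where 29.5% of all genes were called, 10.7% higher and 18.8% lower. At 3 weeks against normal diet 1 fell and 0 rose, where 11.4% of all genes were called, 3.52% higher and 7.88% lower. At 7 against 3 weeks 2 fell and 0 rose, where 37.2% of all genes were called, 17.6% higher and 19.6% lower. At an unadjusted p under 0.05 in limma, 4 were lower at 7 weeks, 1 was higher and 1 lower at 3 weeks, and 2 were lower between the times, where 43.1%, 29.6% and 47.4% of all genes were past it. Shares this close to the background are not results about these genes as a group. The groups did not overlap for 4 of 8 at 7 weeks (47.4% of all genes), 2 of 8 at 3 weeks (49.5%) and 2 of 8 between the times (48.4%). The median log2 fold change was -0.73, -0.18 and -0.11 in the same order, against -0.26, -0.17 and -0.13 for all genes. On the probe that stood for each gene, Smad1, Smad6 and Bmpr2 passed the brightness filter through the normal diet group alone, and the 1 gene called at 3 weeks was Smad6. The count at 7 weeks was 0 without normal diet replicate 1, 1 without normal diet replicates 2 or 3, 3 week replicate 1 or 7 week replicate 2, and 3 without 7 week replicates 1 or 3. The count at 3 weeks was 0 without any 1 of the normal diet arrays or 3 week replicates 1 or 2. Between the times it was 3 without 7 week replicates 1 or 2. The comparisons share arrays, so their values are not independent of each other.

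Against normal diet replicate 3 alone, which leaves out the 2 arrays with the high Eif2s3y levels, 0 of the 8 genes passed against normal diet, and limma called 1 of all 14506 genes at 7 weeks and 0 at 3 weeks. At an unadjusted p under 0.05 these counts were 1 of the 8 genes at each time, and 3047 genes at 7 weeks and 1588 at 3 weeks. The values kept their signs for the calls made with all arrays: -2.46 for Smad5 and -0.93 for Smad4 at 7 weeks, and -1.63 for Smad6 at 3 weeks. The lone control is taken to vary like the other groups. Id2 and Smad5 between 7 and 3 weeks do not involve those arrays except through the shared spread, and stayed past the threshold (limma adjusted p = 0.0168 and 0.0333).

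**Figure D3:**
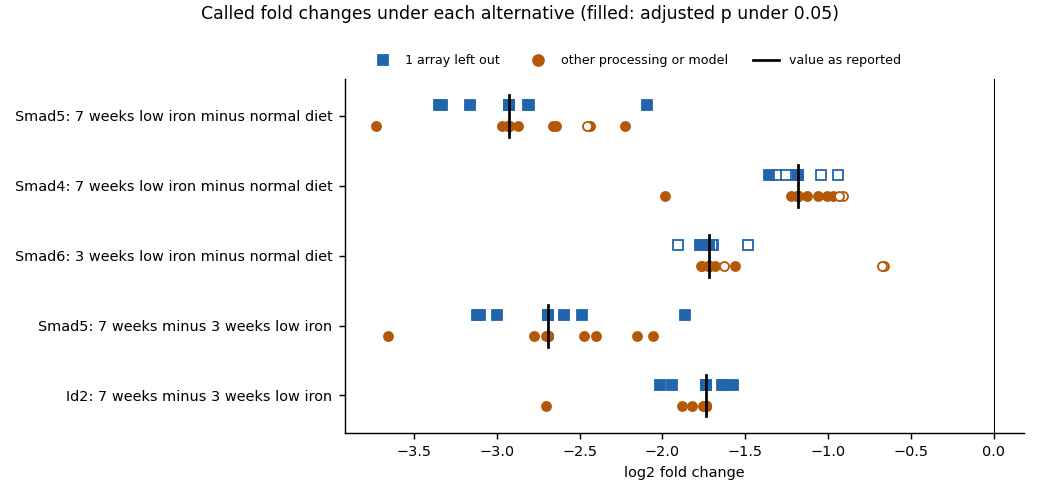
Log2 fold change of the 5 calls under each alternative (squares, 1 array left out; circles, another processing or model; filled, adjusted p under 0.05; line, value as reported). Every point lies below 0, and Id2 and Smad5 between 7 and 3 weeks are filled throughout. Some alternatives could move only the p value and not the point. The direction of Smad6 was fixed by the brightness filter.

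The 9 arrays were also searched for the genes whose values, after subtracting each gene's mean, lay closest to those of each called gene. The measure is the root mean square difference in log2 level over the 9 arrays. For Id2 they were Smim14 (0.189), Slc22a18 (0.192) and Arhgap30 (0.252), against a median of 1.02 over all genes. For Smad5 they were Me2 (0.292), Dph7 (0.300) and Gga2 (0.327), against a median of 1.59. For Smad4 they were Arglu1 (0.201), Prpsap1 (0.211) and Purb (0.220), and for Smad6 Pipox (0.218), Olfr164 (0.248) and Trim13 (0.257), against medians of 0.874 and 0.996. None of the 8 tested genes was among the 3 closest to any of these 4. Set against Id2, Id3 differed by 0.634, with 9.93% of genes closer, and Id1 by 1.37, with 80.9% closer. Set against Smad5, Smad4 differed by 1.02, with 10.4% of genes closer.

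The rest of the pathway was read from lists of 111 genes, chosen with earlier results of these data known. Of these, 109 were on the array and 78 were tested. At 7 weeks against normal diet 13 rose and 16 fell, which is 37.2% of the 78 against 29.5% of all genes. At 3 weeks 2 rose and 6 fell, 10.3% against 11.4%. At 7 against 3 weeks 14 rose and 17 fell, 39.7% against 37.2%. The 7 week count of 29 was 13, 19 and 15 without normal diet replicates 1, 2 and 3. The 3 week count of 8 was 4, 2 and 2 without those arrays, 2, 2 and 5 without 3 week replicates 1, 2 and 3, and 16 without 7 week replicate 1. The count of 31 between the times was 17 without 3 week replicate 3. Against normal diet replicate 3 alone, 0 genes of the lists were called at either time against normal diet.

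**Figure D4:**
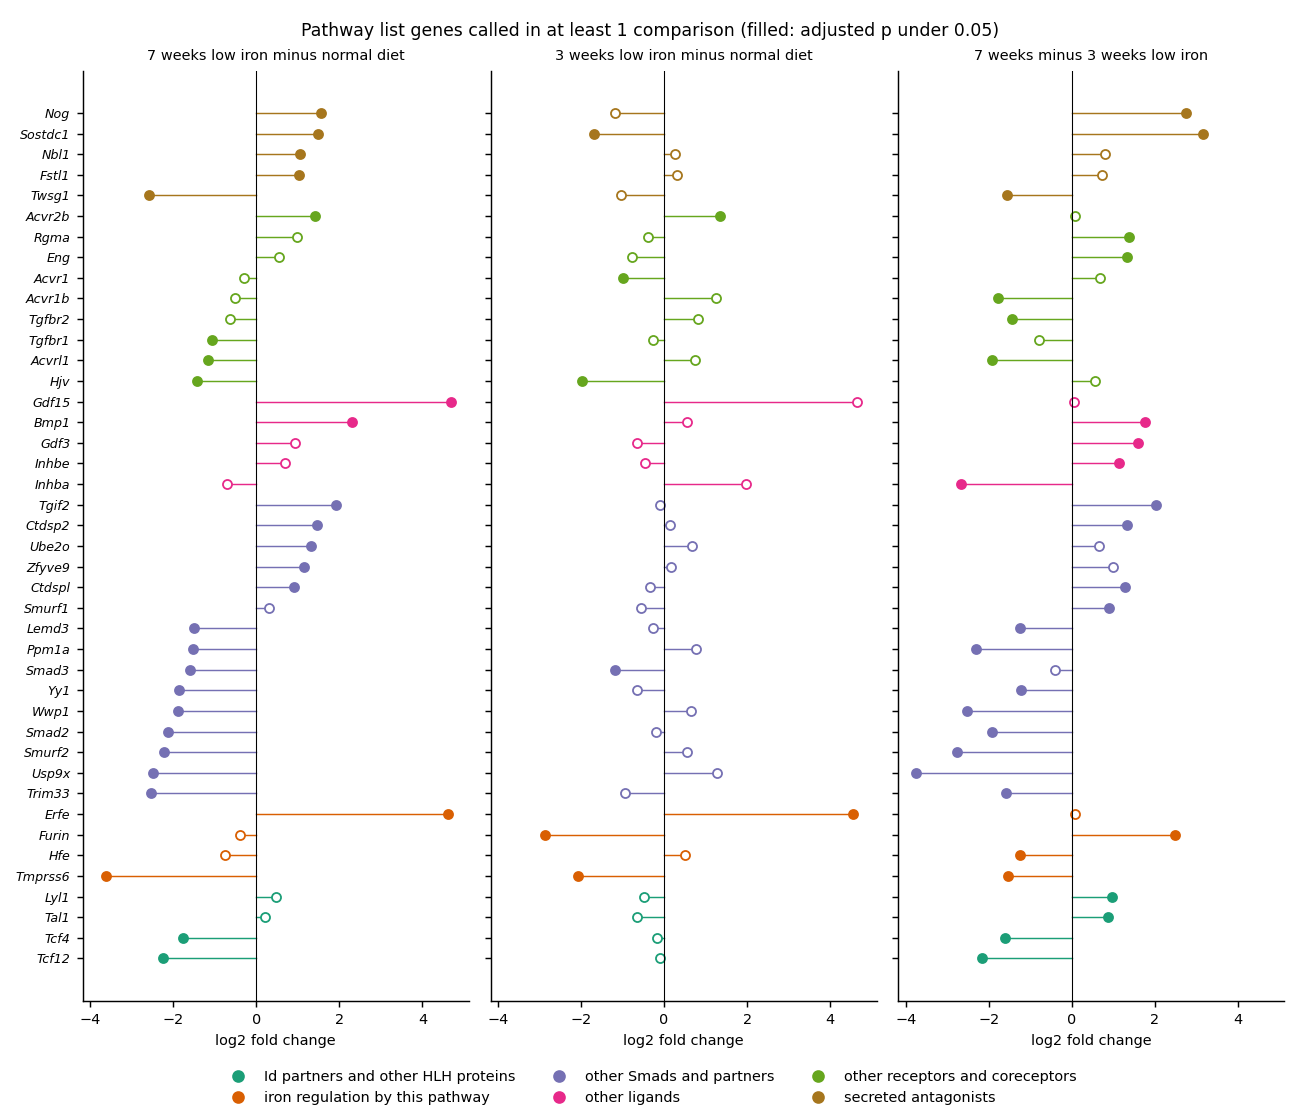
Log2 fold change of the 42 pathway list genes called in at least 1 comparison, by list (filled, adjusted p under 0.05). Erfe lies above 4 at both times against normal diet and Tmprss6 below -2 at both. Tmprss6 was well above background on 2 of the 7 week arrays.

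Of 20 genes tested from the list of ligands, 2 rose and 0 fell at 7 weeks and 0 passed at 3 weeks against normal diet. That makes 10% and 0% of this list, where 29.5% and 11.4% of all genes were called. Gdf15, a ligand of the family made by stressed erythroblasts, had levels of 6.23, -0.24 and 1.38 at 7 weeks, 3.07, 3.87 and 0.28 at 3 weeks, and -2.30, -2.17 and -2.24 on normal diet. All low iron arrays lay above all normal diet arrays, over a wide range. Its log2 fold change was 4.69 ± 1.49 at 7 weeks (limma adjusted p = 0.043) and 4.64 ± 1.49 at 3 weeks (limma adjusted p = 0.0741). The 7 week value was 2.81 to 6.04 with 1 array left out, lowest without 7 week replicate 1, and was called in 14 of 24 alternatives. Bmp1, a protease that cuts procollagen and the BMP antagonist chordin and is no BMP ligand despite its name, rose by 2.31 ± 0.44 at 7 weeks (limma adjusted p = 0.00715). A further Bmp1 probe rose with the chosen probe, by 1.68 at 7 weeks against normal diet and by 2.70 at 7 against 3 weeks. Another Bmp1 probe fell at 7 against 3 weeks (-0.97), where the chosen probe rose. At 7 against 3 weeks Gdf3 (1.59) and Inhbe (1.14) also rose, and Inhba, a subunit of activins, fell (-2.68).

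Of 11 other receptors and coreceptors tested, 1 rose and 3 fell at 7 weeks, and 1 rose and 2 fell at 3 weeks, against normal diet. That makes 36.4% and 27.3% of this list, where 29.5% and 11.4% of all genes were called. Acvr2b, a type II receptor for activins and some BMPs, rose at both times, by 1.41 ± 0.33 at 7 weeks (limma adjusted p = 0.0138) and 1.34 ± 0.33 at 3 weeks (limma adjusted p = 0.0326). Hjv, the hemojuvelin coreceptor through which hepatocytes sense iron, was well above background on normal diet alone. It passed the filter through that group alone, so only a lower level on low iron diet could have been called. The normal diet level was at least 2.38-fold higher than at 3 weeks (limma adjusted p = 0.0181), and no fold can be given at 7 weeks (limma adjusted p = 0.0244). Acvrl1 (-1.16), a type I receptor best known in endothelium, and the TGF-beta receptor Tgfbr1 (-1.07) fell at 7 weeks, and Acvr1 (-0.98), a type I BMP receptor, fell at 3 weeks. These calls were made in 12, 11 and 13 of 24 alternatives, in the same order. A further Acvr1 probe had a 3 week value of 0.12, which did not pass. At 7 against 3 weeks the coreceptors Eng (1.32) and Rgma (1.37) rose, and Acvrl1 (-1.91) and Tgfbr2 (-1.44) fell. Acvr1b was called lower there too, at a fitted -1.77, but was not well above background on any 7 week array.

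Among other Smads and their partners, 5 of 25 rose and 9 fell at 7 weeks, and 0 rose and 1 fell at 3 weeks. Called shares were thus 56.0% and 4.0%, where 29.5% and 11.4% of all genes were called. Smad2, the activin and TGF-beta counterpart of Smad5, had levels of -2.30, -0.97 and -0.50 at 7 weeks, 0.51, 0.56 and 0.91 at 3 weeks, and 1.24, 0.57 and 0.76 on normal diet. As with Smad5, every 7 week array lay below every other array. Smad2 fell by 2.12 ± 0.45 at 7 weeks against normal diet (limma adjusted p = 0.0102), and fell by 1.92 ± 0.45 against 3 weeks (limma adjusted p = 0.01). Smad3, the other Smad of that branch, fell at both times against normal diet, with log2 fold changes of -1.59 ± 0.31 at 7 weeks (limma adjusted p = 0.00734) and -1.19 ± 0.31 at 3 weeks (limma adjusted p = 0.0383). Trim33, which binds Smad2 and Smad3 and is needed in zebrafish erythroid cells, fell by 2.54 ± 0.40 at 7 weeks (limma adjusted p = 0.00402). The other genes of this list that fell at 7 weeks were the ubiquitin ligases Smurf2 (-2.22) and Wwp1 (-1.88), the deubiquitinase Usp9x (-2.47), which acts on Smad4, the phosphatase Ppm1a (-1.53), the nuclear envelope protein Lemd3 (-1.50), which binds Smads, and the factor Yy1 (-1.87). Smurf2 and Wwp1 were well above background on 2 and 1 of the 7 week arrays. The 5 that rose were the repressor Tgif2 (1.92), the phosphatases Ctdsp2 (1.47) and Ctdspl (0.92), Ube2o (1.31), a ubiquitin enzyme of late erythroid cells, and Zfyve9 (1.15), an anchor for Smad2 and Smad3. Ctdspl and Zfyve9 were each called in 9 of 24 alternatives. With no scaling between arrays Ctdspl was 0.11. At 7 against 3 weeks 4 rose and 8 fell, 48.0% of the list against 37.2% of all genes. Smurf1 (0.88), a ligase for Smad1 and Smad5, was among those that rose. That value was -0.0795 with no scaling between arrays.

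Of 7 secreted antagonists tested, 4 rose and 1 fell at 7 weeks, and 0 rose and 1 fell at 3 weeks, against normal diet. In this short list that is 71.4% and 14.3%, where 29.5% and 11.4% of all genes were called. Nog, which encodes noggin and keeps BMP ligands from their receptors, had levels of 0.13, 1.16 and -0.03 at 7 weeks, -2.25, -1.99 and -2.72 at 3 weeks, and -1.66, -0.91 and -0.87 on normal diet. The 3 groups did not overlap, and the order was the reverse of that of Id2. Nog rose by 1.57 ± 0.40 at 7 weeks against normal diet (limma adjusted p = 0.0192) and by 2.74 ± 0.40 against 3 weeks (limma adjusted p = 0.00128). Sostdc1, which also binds BMPs, had the same order of groups as Nog, with log2 fold changes of 1.48 ± 0.40 at 7 weeks (limma adjusted p = 0.0244) and -1.68 ± 0.40 at 3 weeks (limma adjusted p = 0.0303) against normal diet. A further Sostdc1 probe had values of the opposite sign that did not pass. Nbl1 (1.06), a BMP antagonist of the DAN family, and Fstl1 (1.03), a relative of follistatin, rose at 7 weeks, and Twsg1 (-2.58), a modulator of BMP binding to chordin, fell. The Fstl1 call was made in 9 of 24 alternatives. The median of the list at 7 weeks was 1.03, against -0.26 for all genes, over 7 genes and with 8 of the 15 listed not tested. With no scaling between arrays, Nog, Sostdc1, Nbl1 and Fstl1 all lost their 7 week calls against normal diet. Nog was then 0.76, Nbl1 0.25 and Fstl1 0.23. Twsg1 at 7 weeks and Nog between the times kept their calls there.

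Of 9 partners of Id proteins and other helix-loop-helix or homeobox genes tested, 0 rose and 2 fell at 7 weeks, and 0 passed at 3 weeks. The 7 week share was 22.2%, where 29.5% of all genes were called, and 11.4% were at 3 weeks. The E protein genes Tcf12 and Tcf4 fell at 7 weeks, with log2 fold changes of -2.25 ± 0.45 (limma adjusted p = 0.00858) and -1.77 ± 0.53 (limma adjusted p = 0.0342). At 7 against 3 weeks Tcf12 (-2.15) and Tcf4 (-1.60) fell as well, while Tal1 (0.87) and Lyl1 (0.96), erythroid and hematopoietic factors that pair with E proteins, rose. The Tal1 value had the opposite sign with no scaling between arrays (-0.0938) and under quantile scaling (-0.0577). Lyl1 was called in 17 of 24 alternatives, and its value was 0.0004 with no scaling and 0.0433 under quantile scaling. The Tcf4 calls at 7 weeks against normal diet and against 3 weeks were made in 14 and 12 of 24 alternatives. A further Tcf4 probe had values of the opposite sign there, 0.38 and 0.58, and did not pass in any comparison.

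In the list of iron regulation, 1 of 6 rose and 1 fell at 7 weeks, and 1 rose and 2 fell at 3 weeks. In this short list that is 33.3% and 50%, where 29.5% and 11.4% of all genes were called. Erfe, the erythroblast hormone erythroferrone, which binds BMP ligands and lowers hepcidin, had levels of 4.03, 3.53 and 4.21 at 7 weeks, 3.91, 4.71 and 2.93 at 3 weeks, and -0.71, -0.78 and -0.58 on normal diet. The low iron arrays stood far above all normal diet arrays and overlapped each other. Erfe rose by 4.61 ± 0.43 at 7 weeks (limma adjusted p = 0.00113) and 4.54 ± 0.43 at 3 weeks (limma adjusted p = 0.00794). Tmprss6, a protease that cleaves hemojuvelin in liver, fell by 3.62 ± 0.51 at 7 weeks (limma adjusted p = 0.00282) and fell by 2.07 ± 0.51 at 3 weeks (limma adjusted p = 0.034). It was well above background on 2 of the 7 week arrays, so the size of the 7 week fall rests in part on signal near background. Furin, which processes BMP precursors, fell by 2.86 ± 0.36 at 3 weeks (limma adjusted p = 0.00831) and at 7 weeks had a value of -0.39 (limma adjusted p = 0.437). It rose at 7 against 3 weeks by 2.47 (limma adjusted p = 0.00138). Hfe (-1.24), a partner of transferrin receptors, fell between the times.

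Markers of other marrow cells were read as well. Their summed levels overlapped between groups for some cell types and not for others, and their part in the values above was not tested. Erythroblast markers summed to 2720 to 4251 at 7 weeks, 1993 to 2128 at 3 weeks and 2273 to 2444 on normal diet. Of these 13 markers, 3 rose and 2 fell at 7 weeks against normal diet, where 10.7% of all genes were higher and 18.8% lower. Neutrophil markers summed to 349.3 to 556.6 at 7 weeks, 275.5 to 453.2 at 3 weeks and 213.6 to 594.3 on normal diet. B lineage markers summed to 3.54 to 10.03 at 7 weeks, 9.32 to 22.6 at 3 weeks and 4.35 to 7.11 on normal diet. T and NK cell markers summed to 23.3 to 43.3 at 7 weeks, 18.1 to 28.1 at 3 weeks and 19.2 to 21.2 on normal diet. Megakaryocyte markers summed to 6.92 to 41.3 at 7 weeks, 21.1 to 65.3 at 3 weeks and 18.0 to 51.5 on normal diet. Endothelial markers summed to 11.4 to 16.5 at 7 weeks, 6.86 to 9.27 at 3 weeks and 9.36 to 10.4 on normal diet, and stromal markers to 1.69 to 2.72, 0.838 to 1.37 and 0.827 to 1.43. Among the 7 stromal markers on the array, 4 were well above background on all normal diet arrays, and Col1a1 and Pdgfrb on none of those arrays.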

How the data were processed

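Gene expression was measured on 9 single-colour Agilent arrays, 3 per group. Per the labels' protocols, RNA was amplified and coupled to Cy3. Spot intensity in the deposited scanner files comes from Agilent Feature Extraction 10.7.3.1, per the file headers, with background subtracted and no scaling between arrays. Values in the deposited series table are on a log2 scale. Set against the scanner values (r of 0.997 to 0.999), they were centred on each probe's median. The table's normalization between arrays is not given in the sources used here, and the column medians were 0 except for 7 week replicate 2. The table served as an alternative.

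Control and outlier spots were left out, the 75th percentile of an array was subtracted from its log2 processed signals, spots of the same probe were averaged, and probes were named by RefSeq accession through a GRCm38.p6 gene table, which named 26413 probes with 20018 symbols. A probe was tested when any group had it well above background on all 3 arrays; 984 probes lacking a usable spot on some array were left out. The brightest probe stood for a gene, levels of different probes were not compared, and 95% intervals are unadjusted. The model was limma 3.58.1 in R 4.3.3 over all 9 arrays, two-sided, with p-values adjusted by Benjamini-Hochberg over 14506 genes (or all 34486 tested probes where stated) at 0.05. It was tested on simulated data. The number of arrays limits the precision, and p-values measure the spread between these samples. All members are named, with every pathway list gene called in at least 1 comparison and the 3 genes closest to each called member. Members and lists were chosen with earlier results of these data known. Shared replicate numbers did not pair samples: of 9 same-numbered pairs, 4 had deviations correlated above 0.1, over a range of -0.17 to 0.29. Alternatives were other scalings, background corrections, filters, probe rules, models and arrays left out. The planned normexp correction used the median signal, since a mean signal was not at hand.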

Additional observations from a re-analysis of the deposited data

Results flagged for a closer look

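Id2 and Smad5 differed between the 7 week and 3 week groups, by the test of 7 weeks against 3 weeks, in which the time on diet and the slide cannot be told apart. For Id2 the log2 fold change was -1.74 (limma adjusted p = 0.00462), and every 7 week array lay below every 3 week array. For Smad5 it was -2.69 (limma adjusted p = 0.0114), likewise without overlap.

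Signal stood well above background on low iron arrays and on no normal diet array for probes that entered no gene level comparison. The second Smad1 probe, A_52_P65108, did so on 4 of 6 low iron arrays, Smad7 on 3 and Bmpr1a on 1.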

How the results depend on the processing

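Direction held in every alternative for the 5 calls among the members, where the brightness filter fixed that of Smad6, and Id2 and Smad5 at 7 against 3 weeks stayed past the threshold in all 24. Some alternatives cannot move these fold changes, only their p values. They are an intensity trend in the spread, a replicate block, only the 2 groups compared, and each probe fitted alone. Leaving out arrays of a group outside the comparison cannot move a fold change either. The cause of the changes below was not tested, apart from the loss of samples or genes that an alternative itself brings. With no scaling between arrays, 5 members were called at 7 weeks and 4 between the times, 5 pathway genes at 3 weeks, and 966 genes at 3 weeks (492 higher, 474 lower) and 7100 at 7 weeks (454 higher, 6646 lower). Reversed values there were Smad1 at 0.0271 (3 weeks), -0.52 (7 weeks) and -0.55 (between the times), Bmpr2 at -0.31 (7 weeks), and, between the times, Id1 at -0.49, Smad6 at -0.23, Tal1 at -0.0938 and Smurf1 at -0.0795. Tal1 was -0.0577 under quantile scaling and -0.20 with normexp and quantile. At 3 weeks 0 members were called under quantile scaling, under both normexp settings and among genes above background on all 9 arrays, which gave no value for Smad1, Smad6 and Bmpr2. With array weights 2 members, 28 pathway genes and 4962 genes were called at 3 weeks, Bmpr2 was -0.0432 at 7 weeks and Id1 -0.0244 between the times. With only the 2 groups compared, 22 pathway genes and 4416 genes were called at 3 weeks, and 1 member, 16 pathway genes and 2819 genes at 7 weeks. With every probe fitted alone, 4549, 10440 and 13647 of 34486 probes were called at 3 weeks, 7 weeks and between the times; with no filter on dim probes 6939 genes were at 7 weeks. Of all genes called, 30.9% were higher at 3 weeks, 36.4% at 7 weeks and 47.2% between the times; with no scaling these were 50.9%, 6.39% and 10.8%, and with no filter on dim probes 60.2% and 62.6% at 7 weeks and between the times. At 3 weeks the share was 43.3% with quantile scaling and 47.4% with normexp and quantile. The mean over a gene's probes gave Smad1 1.43 and Smad4 0.26 at 3 weeks, and Smad1 -0.67 between the times. Against normal diet replicate 3 alone, 0 members, 0 pathway genes and 0 genes were called at 3 weeks, and 0, 0 and 1 at 7 weeks; Smad5 was 0.24 at 3 weeks and Smad1 -0.0233 at 7 weeks.

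Leaving out 1 array at a time gave 198 to 3503 genes at 3 weeks, 1739 to 5211 at 7 weeks and 3544 to 6489 between the times, members of 0 to 1, 0 to 3 and 2 to 3, and pathway genes of 2 to 16, 13 to 32 and 17 to 37. The ranges that crossed 0 were -0.15 to 0.21 for Id3, -0.39 to 0.17 for Smad1 and -0.47 to 0.0755 for Smad5 at 3 weeks, -0.77 to 1.42 for Bmpr2 at 7 weeks, and -0.67 to 1.43 for Id1 and -0.0875 to 2.10 for Bmpr2 between the times. The replicate block gave 1401, 4062 and 5245 genes at 3 weeks, 7 weeks and between the times, with 1, 2 and 2 members, and 5 pathway genes at 3 weeks. The pathway gene counts under alternatives were added after seeing the data. Signal close to background limits Smad1, Smad6, Smad7, Bmpr1a and Bmpr2.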
